A study of Saccharomyces cerevisiae with 116 samples.

Results

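The growth and stress isozymes of glycolysis are 10 genes of budding yeast (Saccharomyces cerevisiae) that encode alternative enzymes for 4 steps of sugar breakdown. They were picked by open reading frame, for the step each serves: HXK1 (YFR053C), HXK2 (YGL253W) and GLK1 (YCL040W) for glucose phosphorylation, TDH1 (YJL052W), TDH2 (YJR009C) and TDH3 (YGR192C) for glyceraldehyde-3-phosphate dehydrogenase, ENO1 (YGR254W) and ENO2 (YHR174W) for enolase, and CDC19 (YAL038W) and PYK2 (YOR347C) for pyruvate kinase. All 10 were present in the 3 deposited count tables, which hold up to 6709 genes and 116 libraries, and all 10 passed the filter on low counts in every fit. The isozymes were chosen with earlier results of these data known, so their called counts beside all genes are descriptive, not independent support. The study asked how far the response to stress depends on whether cells grow and divide. It used strain BY4741 grown in YPD, the standard rich glucose medium, for 7 to 10 generations per the labels. Cells received salt (NaCl) or heat, either while cycling freely (asynchronous, labelled asy) or during a block.

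The compared groups all share this strain and medium. Stressed asynchronous cells at T30 of salt were set against asynchronous cells at T0, with 3 libraries of each. Cells arrested in G1 by the mating pheromone alpha factor (25 uM for 2 h), at T30 of salt, were set against alpha-factor cells at T0, again with 3 libraries of each. These 12 libraries carried added fission yeast (Schizosaccharomyces pombe) cells and are called spiked, as do 4 single libraries of cells under cycloheximide, an inhibitor of translation, at the labels 0.1 and 0.2. In 50 libraries without added cells, salt and heat were applied to cells held by nocodazole (10 ug/ml), a microtubule poison that stops cells in mitosis, or by alpha factor, with 3 stressed and 2 unstressed libraries in each of the 4 comparisons. The stressed sets pool libraries labelled with no dose, 0.5N and 0.7N of salt, or with no temperature, 33c and 37c. The 2 libraries with a stated dose or temperature carry the same replicate number, 2, so the 3 stressed libraries stand for 2 replicate numbers, and their p-values treat them as 3. Nocodazole for 3.5 h and cycloheximide 0.1 had 2 libraries per time. The last 50 libraries came from sucrose gradients, as fractions or as input RNA, and hold S. pombe counts too. The sources used here give neither the unit of the cycloheximide labels nor the meaning of the time label t0'.

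Glycolysis converts glucose to pyruvate, and in budding yeast several of its steps are served by duplicated genes. In cells growing on glucose HXK2, TDH3, ENO2 and CDC19 are known as the main isozymes of their steps. HXK1 and GLK1 are known to be held low by glucose repression and to rise in starvation and stress, TDH1 to be expressed as growth slows, and PYK2 to be glucose-repressed and less dependent on fructose-1,6-bisphosphate than CDC19.

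S. cerevisiae counts per library ran from 1555271 to 5469230 in the spiked series, from 1794997 to 7043273 in the unspiked series and from 365088 to 5081617 in the gradient series. LEU2, MET17 and URA3, deleted in BY4741, stayed at or below 2.893 CPM (a gene's counts scaled to the S. cerevisiae counts of its library). The pheromone gene FIG1 was read at 1040 to 1655 CPM in alpha-factor cells and at 0 to 0.565 CPM in asynchronous cells at T0. The mitotic cyclin CLB2 was read at 210.4 to 219 CPM in nocodazole cells before salt, a level given without another state beside it. In these bulk samples, fewer cells expressing a gene and less RNA per cell cannot be told apart. The design text speaks of biological replicates without naming cultures, so p-values measure the spread between these libraries. TDH1, TDH2 and TDH3, ENO1 and ENO2, and HXK1 and HXK2 are near-identical or similar copies, and the sources used here do not say how reads matching several copies were counted, so part of the reads of one copy may have been split with another. They do not give the strand setting either.

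Salt turned the hexokinase step over in asynchronous cells. HXK1, a hexokinase, was read at 2577, 2001 and 2018 CPM at T30, against 122, 105.3 and 123.9 CPM at T0. GLK1, the glucokinase, which does not phosphorylate fructose, stood at 3419, 3114 and 2066 CPM at T30, against 168.4, 121.8 and 131.3 CPM at T0. For both genes every salt library lay more than 10-fold above every T0 library. The fitted log2 changes were 4.09 ± 0.29 for HXK1 (± SE throughout, adjusted p = 8.5e-07) and 4.21 ± 0.38 for GLK1 (adjusted p = 4.75e-06), from edgeR's quasi-likelihood test with Benjamini-Hochberg adjustment over the 5744 genes of this fit. Adjusted p-values below come from the same test, over the genes of each series' own fit, unless DESeq2 or limma is named. HXK2, the main hexokinase of growth on glucose, was read at 1599, 1638 and 1403 CPM at T30 and at 2068, 1949 and 1861 CPM at T0. The HXK2 groups did not overlap, yet the change of -0.49 ± 0.20 did not pass (adjusted p = 0.065), became a call with the replicate pairs as a block (-0.48, adjusted p = 0.00489) and turned to 0.09, uncalled, when S. pombe totals set the scale.

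The lower steps changed less. TDH1, the least abundant of the dehydrogenase isozymes, had 107.4, 98.52 and 61.08 CPM at T30, against 42.65, 34.74 and 26.84 CPM at T0, a rise of 1.21 ± 0.34 (adjusted p = 0.0116). All TDH1 salt libraries stood above all T0 libraries, but the call was lost without T0 replicate 3 (1.03, adjusted p = 0.051). TDH2 had 831, 846.3 and 641 CPM at T30, against 1222, 1159 and 966.1 CPM at T0, and fell by 0.68 ± 0.20 on the log2 scale (adjusted p = 0.0166). That fall was not called without T0 replicate 1 (-0.58), without T30 replicate 3 (-0.49) or with S. pombe totals (-0.086, adjusted p = 0.89). TDH3, the most abundant dehydrogenase isozyme, had 5036, 5103 and 3348 CPM at T30 and 6278, 5309 and 4624 CPM at T0. These groups overlapped, and the change of -0.41 ± 0.25 (adjusted p = 0.214) was called with the replicate block (-0.42, adjusted p = 0.0179) and was 0.20, uncalled, on the S. pombe scale.

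PYK2, the minor pyruvate kinase, had 275.6, 255 and 170.4 CPM at T30, against 64.69, 41.5 and 45.38 CPM at T0, and rose by 2.06 ± 0.34 (adjusted p = 3.89e-04). CDC19, the main pyruvate kinase, had 8009, 7718 and 5490 CPM at T30 and 9528, 8115 and 8643 CPM at T0, all salt libraries lying below all T0 libraries. Its change was -0.45 ± 0.23 (adjusted p = 0.135), called with the replicate block (-0.47, adjusted p = 0.013), and 0.14, uncalled, with S. pombe totals. ENO1, an enolase isozyme linked to gluconeogenic growth, had 896, 574.1 and 354.9 CPM at T30 and 553.9, 307.5 and 290.3 CPM at T0. Its groups overlapped and its change of 0.52 ± 0.46 (adjusted p = 0.404) was called with the block (0.52, adjusted p = 0.0273) and with S. pombe totals (1.15, adjusted p = 0.0393). ENO2, the main enolase on glucose, was read at 10367, 8788 and 5085 CPM at T30 and at 12670, 8246 and 6873 CPM at T0. Its change of -0.35 ± 0.41 (adjusted p = 0.536) became 0.29 on the S. pombe scale, uncalled on both.

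Of the 10 isozymes 4 were called higher (HXK1, GLK1, TDH1, PYK2) and 1 lower (TDH2), against 22.2% of 5744 genes called higher and 19.6% called lower. Their median log2 change was 0.083, beside 0.046 for all genes. With the replicate numbers as a block, 9 of 10 were called, 5 higher and 4 lower, against 30.9% of genes higher and 28.6% lower in that blocked fit. On the S. pombe scale, which moved the median of all genes by 0.551, 5 were called higher and 0 lower (edgeR). In that fit 1432 of 5744 genes were called, 84.4% of them higher, beside 53.1% of those called under TMM. The summed level of 5 general stress markers stood at 12320 to 20180 CPM at T30 and at 991.2 to 1195 CPM at T0, and its part in these changes was not tested.

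**Figure D1:**
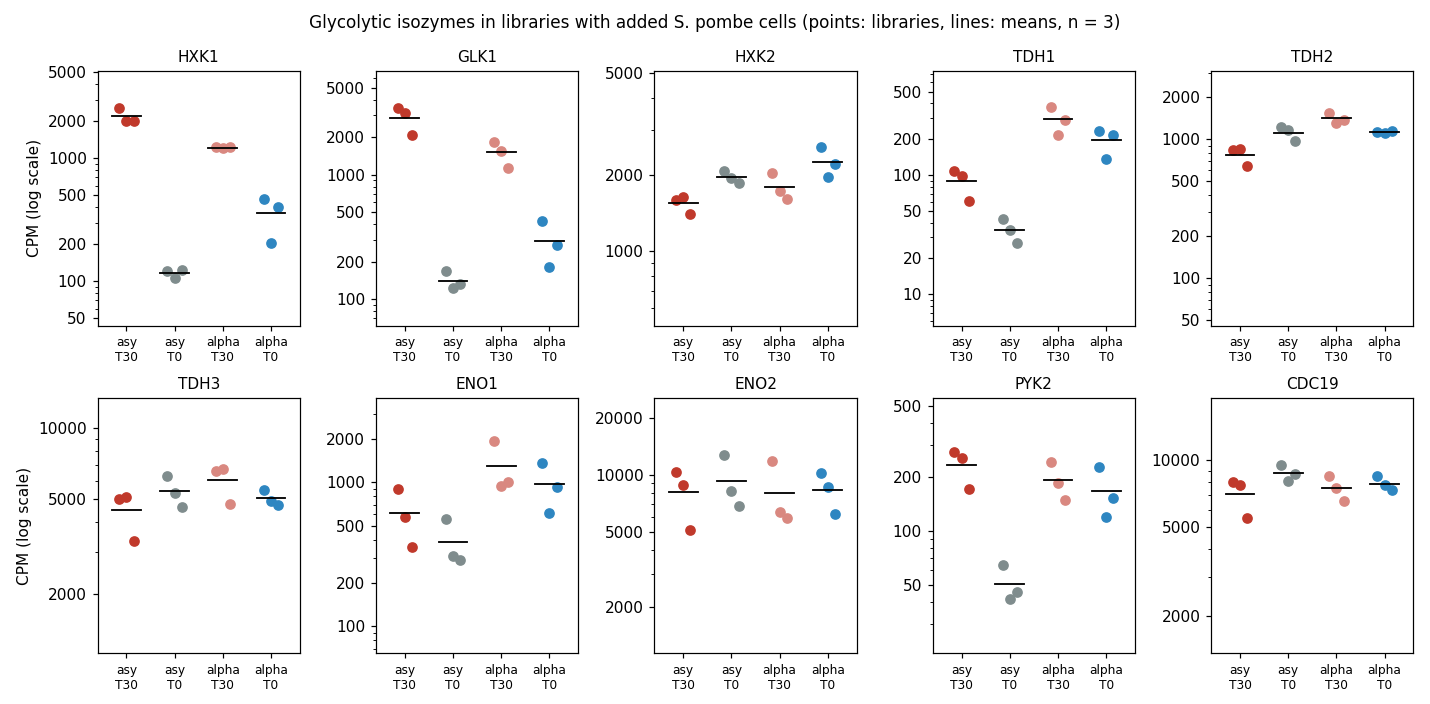
Levels of the 10 isozymes (CPM, log scale) in spiked libraries of asynchronous (asy) and alpha-factor (alpha) cells at T30 of salt and at T0. Points are libraries and lines are means (n = 3); HXK1, GLK1 and PYK2 show the widest gap in asynchronous cells, and the alpha-factor groups lie nearer each other.

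In alpha-factor cells salt raised HXK1 and GLK1 and left the other 8 uncalled, against 5.47% of genes called higher and 3.62% called lower. HXK1 was read at 1244, 1204 and 1225 CPM at T30, against 469.9, 204.2 and 402.8 CPM at T0, a change of 1.68 ± 0.26 (adjusted p = 0.00172). GLK1 was read at 1828, 1556 and 1139 CPM at T30, against 422, 179.2 and 270.2 CPM at T0, a change of 2.29 ± 0.35 (adjusted p = 0.00144). For both genes the salt libraries lay above all T0 libraries. PYK2 stood at 243, 184.8 and 149.3 CPM at T30 and at 228.5, 118.8 and 152.1 CPM at T0, groups that overlapped, with a change of 0.13 ± 0.33 (adjusted p = 0.865). HXK2 had 2039, 1721 and 1611 CPM at T30 and 2558, 1964 and 2212 CPM at T0, overlapping groups whose change of -0.41 ± 0.20 (adjusted p = 0.228) was called with the replicate block (-0.42, adjusted p = 0.0234) and was 0.054, uncalled, with S. pombe totals. The blocked fit called 2 isozymes higher and 1 lower, against 14.05% and 15.9% of genes.

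The dehydrogenase, enolase and main pyruvate kinase genes were not called with salt in alpha-factor cells. TDH1 was read at 374.1, 216.2 and 291.4 CPM at T30 and at 235.6, 135.6 and 217.3 CPM at T0, a change of 0.52 ± 0.32 (adjusted p = 0.365). TDH1 was higher at T30 in each same-numbered pair, and with S. pombe totals and the replicate block together its change was called (0.95, adjusted p = 0.0182). TDH2, which was lower with salt in asynchronous cells, had 1555, 1316 and 1380 CPM at T30 and 1123, 1108 and 1147 CPM at T0, groups that did not overlap, with a change of 0.24 ± 0.20 (adjusted p = 0.508). TDH3 (0.16), ENO1 (0.35), ENO2 (-0.12) and CDC19 (-0.15) were not called. With S. pombe totals, which moved the median of all genes by 0.504, the signs of ENO2 (0.21) and CDC19 (0.30) turned, both still uncalled, and 99.3% of all genes called were higher, beside 60.2% under TMM.

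The difference between the salt responses was itself tested, as the change in alpha-factor cells minus the change in asynchronous cells. HXK1 (-2.41 ± 0.37, adjusted p = 0.00335), GLK1 (-1.91 ± 0.48, adjusted p = 0.0287) and PYK2 (-1.93 ± 0.47, adjusted p = 0.0238) responded less in alpha-factor cells, 3 of 10 lower and 0 higher, against 5.07% of genes lower and 3.73% higher. At T30 PYK2 levels overlapped between the states (149.3 to 243 CPM in alpha-factor and 170.4 to 275.6 CPM in asynchronous cells). Those of HXK1 and GLK1 did not overlap. At T0 PYK2 was higher in alpha-factor cells, as given below. TDH1 (-0.69), TDH3 (0.57), CDC19 (0.30), ENO2 (0.22), ENO1 (-0.16) and HXK2 (0.08) were not called, and with S. pombe totals ENO2 (-0.078) and HXK2 (-0.036) turned sign, while 10.3% of all genes called were higher, beside 42.4% under TMM. HXK1 kept its call under every alternative run. GLK1 lost it without any 1 of 7 single libraries (values of -1.51 to -1.997), PYK2 without any 1 of 6 (-1.61 to -1.85), and both with S. pombe totals (-1.98, adjusted p = 0.0789, and -2.06, adjusted p = 0.0942). TDH2 had a difference of 0.92 ± 0.28 (adjusted p = 0.0636). With the replicate block TDH2 (0.91, adjusted p = 0.00348) and TDH3 (0.56, adjusted p = 0.0457) were called in addition, 2 of 10 higher and 3 lower in all, against 15.7% and 15.6% of genes in the blocked fit. The stress markers reached 6758 to 9023 CPM at T30 in alpha-factor cells, below the 12320 CPM of the lowest asynchronous salt library, and their part in the difference was not tested.

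Several of these genes already differed between the states before salt. Alpha-factor cells at T0 had more TDH1 than asynchronous cells at T0 (235.6, 135.6 and 217.3 CPM, against 42.65, 34.74 and 26.84 CPM), a log2 difference of 2.49 ± 0.35 (adjusted p = 3.71e-04). PYK2 was higher by 1.73 ± 0.34 (adjusted p = 0.00419), with 118.8 to 228.5 CPM in alpha-factor cells and 41.5 to 64.69 CPM in asynchronous cells. HXK1 was higher by 1.64 ± 0.27 (adjusted p = 0.00119), a call that was lost with S. pombe totals (1.30, adjusted p = 0.0591), which moved the median of all genes by -0.236. In these 3 genes no alpha-factor library overlapped an asynchronous one.

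GLK1 (1.07 ± 0.34, adjusted p = 0.062) and ENO1 (1.34 ± 0.46, adjusted p = 0.0835) missed the threshold and were called with the replicate block (1.03, adjusted p = 9.49e-04, and 1.37, adjusted p = 6.86e-05), which called 5 of 10 higher and 0 lower, against 17.1% and 12.8% of genes. HXK2, TDH2, TDH3, ENO2 and CDC19 differed by -0.14 to 0.22 and were not called. Thus 3 of 10 were called higher and 0 lower, against 8.60% and 4.23% of genes. The salt responses above and this difference share the T0 libraries, so they are not independent of each other. The summed pheromone markers stood at 7080 to 9402 CPM in alpha-factor cells and 129.9 to 160 CPM in asynchronous cells, the summed mitosis markers at 104 to 132.5 CPM and 439 to 513 CPM, and their part in these differences was not tested.

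Levels per kilobase of open reading frame allow for gene length, but not for reads matching several copies, whose counting is not known. The same limit holds for the shares and ratios of isozymes below. On this scale asynchronous cells at T30 of salt held GLK1 at 1907, HXK1 at 1508 and HXK2 at 1059 CPM per kb (means, n = 3). At T0 HXK2 stood at 1341, GLK1 at 93.5 and HXK1 at 80.3 CPM per kb. By library, GLK1 read 112, 81.02 and 87.33 at T0, above HXK1 in the same libraries (83.7, 72.23 and 85.01 CPM per kb). At T30 GLK1 read 2275, 2072 and 1374.5, against 1768, 1372 and 1384.3 CPM per kb for HXK1. The difference between these genes was not tested. In the lower steps the main isozymes stayed far ahead at T30: TDH3 at 4500 against TDH1 at 89.1, ENO2 at 6149 against ENO1 at 463, and CDC19 at 4706 against PYK2 at 153.6 CPM per kb. TDH2 stood between TDH3 and TDH1 at 773.5 CPM per kb.

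As a share of the 3 hexokinase-family transcripts, HXK2 made up 23.6 ± 2.3% at T30 of salt and 88.4 ± 1.0% at T0 in asynchronous cells (mean ± SD of counts, n = 3 each). HXK1 took 33.4 ± 3.6% at T30 and 5.29 ± 0.52% at T0, and GLK1 42.9 ± 4.6% and 6.31 ± 0.78%. In alpha-factor cells HXK2 held 39.6 ± 1.1% at T30 and 78.2 ± 4.9% at T0. The minor isozymes of the other steps stayed small shares in asynchronous cells: PYK2 was 3.18 ± 0.16% of pyruvate kinase counts at T30 and 0.568 ± 0.092% at T0, ENO1 6.87 ± 0.96% and 3.95 ± 0.31% of enolase counts, and TDH1 1.65 ± 0.15% and 0.526 ± 0.044% of dehydrogenase counts.

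The log2 ratio of 2 isozymes within a library does not depend on the scaling between libraries. In asynchronous cells salt moved HXK1 over HXK2 by 4.57 (23.7-fold), GLK1 over HXK2 by 4.67, PYK2 over CDC19 by 2.53, TDH1 over TDH3 by 1.62 and ENO1 over ENO2 by 0.84. TDH2 over TDH3 moved by -0.25. The T30 and T0 libraries did not overlap for any of these 6 ratios, and each reached the smallest exact two-sided permutation p that 3 against 3 allows (p = 0.1, adjusted p = 0.1 over the 6 ratios). In alpha-factor cells HXK1 over HXK2 (2.18) and GLK1 over HXK2 (2.76) moved without overlap (exact permutation p = 0.1, adjusted p = 0.3), while the other 4 ratios overlapped, with differences of 0.09 to 0.50. The permutation test does not use the replicate numbers. Within same-numbered pairs (replicates 1, 2 and 3) the salt difference was 0.40, 0.24 and 0.41 for TDH1 over TDH3, 0.28, 1.06 and 0.17 for ENO1 over ENO2, and 0.086, 0.68 and 0.14 for PYK2 over CDC19, above 0 in every pair. For TDH2 over TDH3 it was 0.20, -0.19 and 0.26. Before salt, alpha-factor cells exceeded asynchronous cells without overlap in 5 ratios, TDH1 over TDH3 by 2.56, PYK2 over CDC19 by 1.85, ENO1 over ENO2 by 1.46, HXK1 over HXK2 by 1.34 and GLK1 over HXK2 by 0.78 (exact permutation p = 0.1, adjusted p = 0.12).

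**Figure D2:**
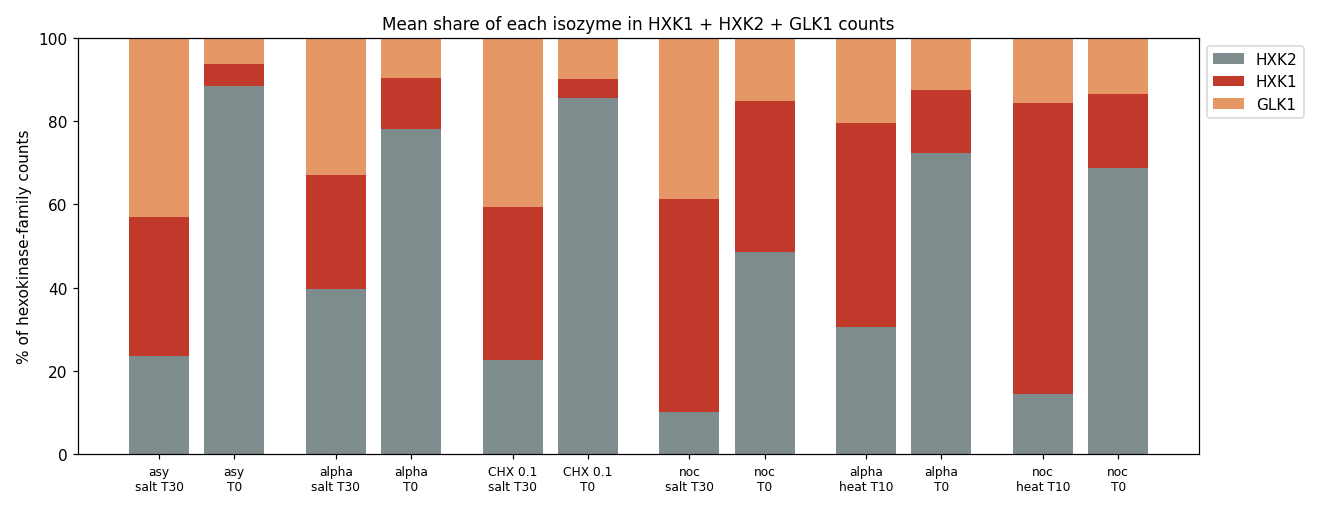
Mean share (%) of HXK2, HXK1 and GLK1 in the sum of their counts, with each stressed group beside its unstressed group. HXK2 held 23.6% in asynchronous cells at T30 of salt and 88.4% at T0, and 10.0% in nocodazole cells at T30 of salt and 48.5% at T0.

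Nocodazole cells offered a second kind of cell cycle block. There salt raised HXK1, read at 5181, 3446 and 4590 CPM at T30, against 1083 and 1544 CPM at T0 (1.71 ± 0.30, adjusted p = 4.83e-04, 5836 genes). GLK1 rose to 3794, 2634 and 3524 CPM at T30, against 490.9 and 593.8 CPM at T0 (2.57 ± 0.27, adjusted p = 4.92e-06). PYK2 rose by 0.96 ± 0.21 (adjusted p = 0.00218), with 224.2 to 263.1 CPM at T30 and 114 to 130.8 CPM at T0. In these 3 genes the groups did not overlap. TDH1 had 344.8, 1172 and 624.5 CPM at T30, against 135.7 and 301 CPM at T0 (1.68 ± 0.42, adjusted p = 0.00581), a rise no longer called without T0 replicate 1 (1.23, adjusted p = 0.118) or when only the 5 compared libraries were fitted (1.68, adjusted p = 0.0619). It was 1.08 without the 0.5N library and 2.40 without T0 replicate 2, both still called. HXK2 fell to 1004, 867.2 and 658.9 CPM at T30, against 1723 and 1729 CPM at T0 (-1.06 ± 0.27, adjusted p = 0.00641).

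In nocodazole 4 of 10 isozymes were thus called higher and 1 lower, against 14.8% and 16.8% of genes. TDH2 (-0.40), TDH3 (-0.09), ENO1 (0.24), ENO2 (-0.57) and CDC19 (-0.47) were not called. In the unspiked alpha-factor libraries 2 were called higher and 0 lower, against 3.24% and 2.62%: HXK1 (1600, 1336 and 1817 CPM at T30, against 504 and 601.7 CPM at T0, 1.44 ± 0.30, adjusted p = 0.00907) and GLK1 (1.64 ± 0.25, adjusted p = 9.72e-04). The HXK1 call was lost without either T0 library (1.34 and 1.54). PYK2 had 166.1 to 201 CPM at T30 and 196.1 to 198.9 CPM at T0 there, and the other uncalled changes ran from -0.63 for HXK2 to 0.45 for TDH1. With only the 5 compared libraries fitted, TDH1 (0.498) and HXK2 (-0.59) were called too, 3 higher and 1 lower in all, against 8.87% and 9.70% of genes. The salt response in nocodazole minus that in alpha factor was called for none of the 10 by edgeR, against 1.78% of genes higher and 0.583% lower. PYK2 came nearest (1.12 ± 0.29, adjusted p = 0.0537), and DESeq2, the fit without the 0.5N libraries and the fit of the compared libraries alone each called it (1.13, 1.10 and 1.12). DESeq2 called 1 of the 10 isozymes, PYK2, against 318 of 5836 genes, and edgeR called 138 genes in all. TDH1 (1.23 ± 0.56) and GLK1 (0.93 ± 0.34) had unadjusted p of 0.0449 and 0.0144.

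Before salt, nocodazole cells had more HXK1 than alpha-factor cells (1083 and 1544 CPM, against 504 and 601.7 CPM, 1.27 ± 0.31, adjusted p = 0.0154). This was the 1 isozyme called higher, with 0 lower, against 3.99% and 4.85% of genes, and the call was lost without alpha-factor replicate 1 (1.18), alpha-factor replicate 2 (1.37) or nocodazole replicate 2 (0.99). With only the 4 compared libraries fitted, 4 isozymes were called higher (HXK1, ENO2 0.72, ENO1 0.57 and GLK1 0.42) and 1 lower (PYK2 -0.66), against 13.4% and 13.96% of genes. At T0 of the heat series HXK1 read 363.2 and 508.5 CPM in nocodazole cells and 475.7 and 451.2 CPM in alpha-factor cells. Those groups overlapped, and their difference was not tested. After 3.5 h of nocodazole salt again raised HXK1 (3347 and 3122 CPM at T30, against 1527 and 1552 CPM at T0, 1.24 ± 0.31), GLK1 (1.90 ± 0.27) and PYK2 (1.195 ± 0.22), 3 higher and 0 lower against 14.1% and 14.7% of genes. HXK1 lost that call (0.96 to 1.25) without either T0 library or without T30 replicate 1, and in the fit of the compared libraries alone (1.30). Stress markers summed to 18980 to 23860 CPM in nocodazole cells and 7527 to 11930 CPM in alpha-factor cells at T30 of salt, without added cells, and their part was not tested.

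Under cycloheximide 0.1 salt raised HXK1, GLK1 and PYK2. HXK1 was read at 1491 and 3070 CPM at T30, against 52.75 and 88.45 CPM at T0 (4.90 ± 0.37, adjusted p = 1.66e-07), and GLK1 at 2585 and 2232 CPM, against 150.3 and 150.9 CPM (3.92 ± 0.30). PYK2 was read at 229.9 and 224 CPM at T30, against 55.22 and 55.68 CPM at T0 (1.95 ± 0.23), and HXK2 at 1423 and 1251 CPM, against 1260 and 1377 CPM, uncalled. These were 3 isozymes higher and 0 lower, against 16.3% and 17.4% of genes. TDH1 was low in both groups, at 24.21 and 37.58 CPM at T30 and 12.88 and 15.33 CPM at T0. TDH2 stood at 253.6 and 329.7 CPM in cycloheximide 0.1 at T0 and at 173.8 CPM in the single cycloheximide 0.2 library, beside 1202 CPM in the single unspiked asynchronous library at T0. The spiked cycloheximide libraries at T0 gave TDH2 303.6 CPM at 0.1 and 167.4 CPM at 0.2, beside 966.1 to 1222 CPM in asynchronous cells. The difference between cycloheximide and asynchronous cells was not tested.

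**Figure D3:**
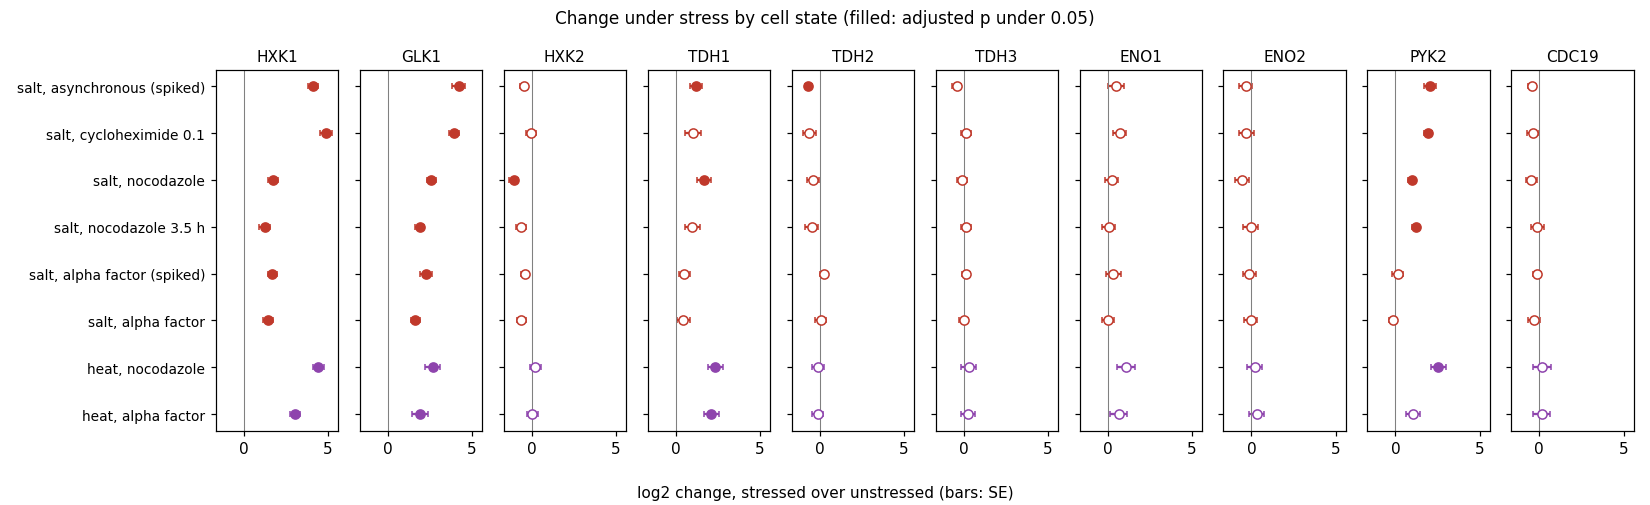
Log2 change under stress over the unstressed group (bars, SE) for each isozyme in 8 combinations of stress and cell state, with filled points where the adjusted p was under 0.05. HXK1 and GLK1 are filled in all 8, PYK2 in neither alpha-factor salt comparison nor alpha-factor heat, and TDH3, ENO1, ENO2 and CDC19 in none.

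Heat raised the same hexokinase genes within 10 min. In nocodazole cells HXK1 stood at 8055, 8792 and 9815 CPM at T10, against 363.2 and 508.5 CPM at T0, a rise of 4.42 ± 0.33 (adjusted p = 1.46e-05, 5689 genes). GLK1 stood at 1251, 2468 and 2409 CPM at T10, against 252.3 and 427.2 CPM at T0 (2.66 ± 0.47, adjusted p = 0.00184). PYK2 (268.6, 468.1 and 417.9 CPM at T10, against 47.92 and 90.08 CPM at T0) rose by 2.55 ± 0.46, and TDH1 (125, 328 and 224.2 CPM, against 30.97 and 60.13 CPM) rose by 2.37 ± 0.46. None of these 4 groups overlapped its T0 group, and 4 of 10 isozymes were called higher and 0 lower, against 16.3% and 16.8% of genes. ENO1 had 1.10 ± 0.53 (adjusted p = 0.139), called without T10 replicate 1 (1.42, adjusted p = 0.0466), and the other 5 ran from -0.09 for TDH2 to 0.31 for TDH3.

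In alpha-factor cells heat raised HXK1 to 3287, 3699 and 4012 CPM at T10, against 475.7 and 451.2 CPM at T0 (3.03 ± 0.30, adjusted p = 7.13e-04). TDH1 rose by 2.12 ± 0.45 (adjusted p = 0.0125), to 209.3 to 280.6 CPM at T10, against 42.55 and 69.77 CPM at T0. GLK1 rose by 1.92 ± 0.45 (adjusted p = 0.0193), to 1426 to 1596 CPM at T10, against 258 and 565.4 CPM at T0. These were 3 higher and 0 lower, against 7.05% and 8.24% of genes. The GLK1 call was lost without T0 replicate 1 (1.45), T10 replicate 1 (1.88) or the 37c library (1.96) and its value was 2.68 without T0 replicate 2; that of TDH1 was lost without T0 replicate 1 (1.79). PYK2 had 416.8, 416.8 and 351.4 CPM at T10 and 114.7 and 273.3 CPM at T0 (1.05 ± 0.42, adjusted p = 0.125), and was called without T0 replicate 2 (1.89, adjusted p = 0.0268). The 2 T0 libraries of this group stood apart, with CDC19 at 3623 and 8924 CPM and ENO2 at 4680 and 9916 CPM.

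HXK2 was near its T0 level at T10 of heat: 1195, 2277 and 2119 CPM, against 1442 and 1928 CPM at T0 in nocodazole cells, and 2032 to 2640 CPM, against 1860 and 2733 CPM at T0 in alpha-factor cells. The heat response in nocodazole minus that in alpha factor was called for none of the 10 by edgeR, against 0.791% of genes higher and 0.580% lower. HXK1 had 1.39 ± 0.38 (unadjusted p = 0.00428, adjusted p = 0.113) and was called by DESeq2 (1.39, adjusted p = 0.00115). PYK2 had 1.497 ± 0.58 (unadjusted p = 0.0286, adjusted p = 0.292). DESeq2 called 1 of the 10 isozymes, HXK1, against 283 of 5689 genes, and edgeR called 78 genes in all. Stress markers summed to 17420 to 44520 CPM in nocodazole cells and 10600 to 25770 CPM in alpha-factor cells at T10, and their part was not tested.

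The time courses, with 1 library at the later times, add levels without a test. In nocodazole cells HXK1 read 5853, 4052 and 2629 CPM at T20, T30 and T40 of heat, and in alpha-factor cells 887.9, 761.1 and 587.5 CPM. The nocodazole values lay above the 508.5 CPM of the higher T0 library, and the alpha-factor values lay nearer the 451.2 to 475.7 CPM of T0. HXK2 in nocodazole cells read 698.5, 431.3 and 430.3 CPM at T20, T30 and T40 of heat, lower than at T0. PYK2 read 627.4, 463.8 and 356.7 CPM in nocodazole cells and 208.6, 177 and 195.8 CPM in alpha-factor cells at the same times.

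Under salt HXK1 read 3799, 3522 and 2908 CPM at T15, T45 and T60 in nocodazole cells and 1430, 1885 and 2063 CPM in alpha-factor cells. TDH1 read 225, 1224 and 807.1 CPM at T15, T45 and T60 in nocodazole cells and 338.9, 499.6 and 661.7 CPM in alpha-factor cells. ENO1 read 1125, 4073 and 2727 CPM in nocodazole cells and 1104, 1888 and 2440 CPM in alpha-factor cells, so both genes were higher in the single T45 and T60 libraries than at T15. In the single asynchronous libraries without added cells, HXK1 read 2415 CPM at T30 of salt and 98.76 CPM at T0, and 4806 CPM at T10 of heat and 33.61 CPM at T0. The libraries labelled t0' had 28.55 to 86.34 CPM of HXK1 and 10.68 to 23.74 CPM of TDH1, below every arrested T0 library of the same series.

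**Figure D4:**
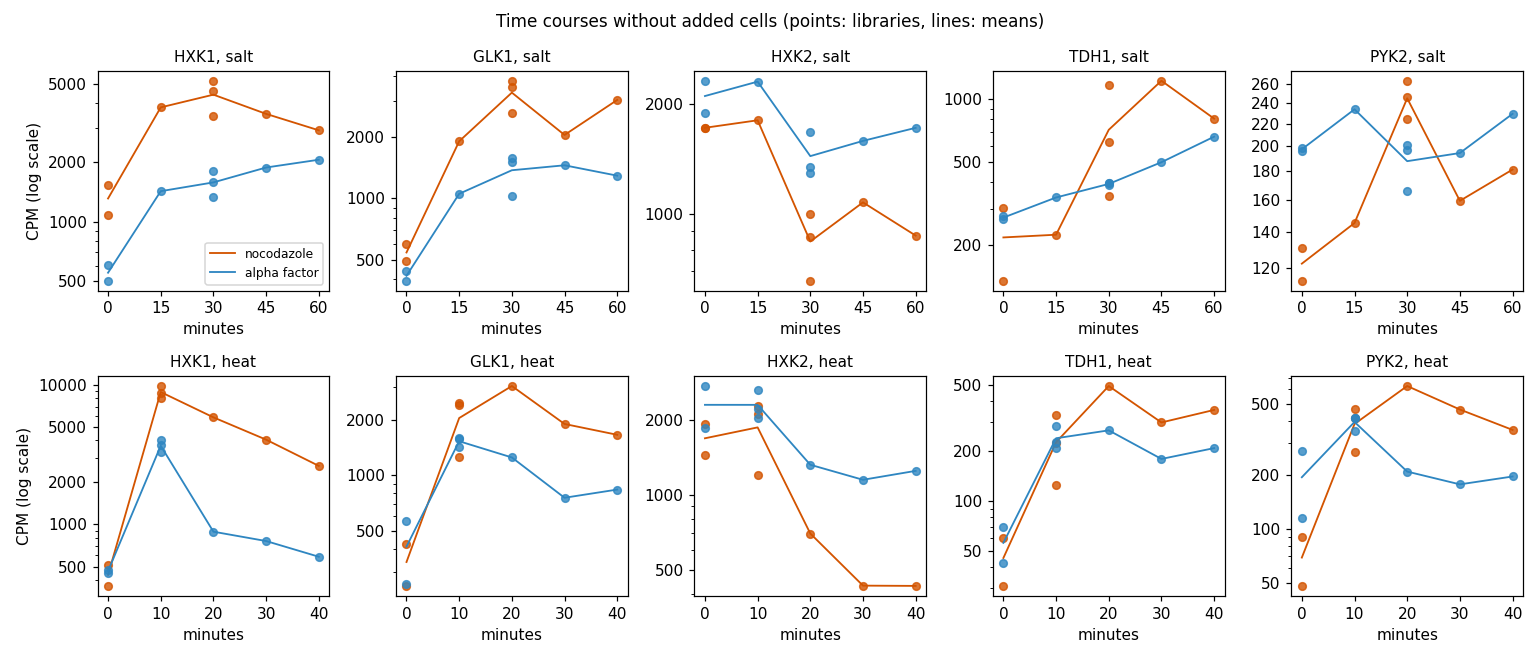
Levels (CPM, log scale) of HXK1, GLK1, HXK2, TDH1 and PYK2 over minutes of salt (top) and heat (bottom) in nocodazole and alpha-factor cells without added S. pombe cells; points are libraries and lines are means. After T10 of heat HXK1 stayed between 2629 and 5853 CPM in nocodazole cells and between 587.5 and 887.9 CPM in alpha-factor cells.

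Sucrose gradients separate transcripts by the number of ribosomes they carry. The inputs of the asynchronous gradients, with 2 libraries per time, again had more HXK1 (2462 and 1256 CPM at T30, against 159.2 and 125.5 CPM at T0, 3.45 ± 0.58, adjusted p = 0.00567), GLK1 (3.31 ± 0.67, adjusted p = 0.0133) and PYK2 (1.72 ± 0.40, adjusted p = 0.0216). These 3 calls, against 9.27% of 5393 genes higher and 7.05% lower, were all lost without either T0 input (2.86 to 3.995 for HXK1 and GLK1, 1.36 and 2.12 for PYK2). With S. pombe totals 80.9% of all genes called were higher, beside 56.8% under TMM. Without T30 input replicate 1 HXK1 was 2.64 and GLK1 2.55, both called. The other 7 ran from -1.12 for TDH3 to 0.45 for TDH1. TDH3 read 41131 and 19444 CPM in the 2 T0 inputs and 20337 and 15479 CPM at T30. The spiked asynchronous T0 libraries held 4624 to 6278 CPM of it, and the gap between the series was not tested.

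The polysome ratio is the log2 ratio of a gene's counts in fractions with 2 or more ribosomes (2R and above) to those in the RNP, 40S, 60S and 80S fractions, each scaled by its S. pombe counts. All 10 isozymes lay above the median gene in each asynchronous gradient, where its ratio was -1.08 and -1.73 at T30 and -1.61 and -1.996 at T0. TDH3 had ratios of 2.27 and 1.51 at T30, against 3.03 and 2.76 at T0, and 82.9 and 74.1% of its scaled counts, against 89.1 and 87.2%, lay in the heavy fractions. TDH1 had 1.04 and -0.34 at T30, against 2.01 and 1.30 at T0, and ENO1 0.67 and -0.33, against 1.61 and 0.82. In these 3 genes both T30 gradients lay below both T0 gradients.

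No isozyme was called in the polysome ratio by limma, against 2.30% of 5053 genes higher and 0.178% lower, with 632 genes at an unadjusted p under 0.05. The changes were -1.31 for TDH1 (unadjusted p = 0.00768, adjusted p = 0.166), -1.04 for ENO1 (adjusted p = 0.352) and -1.004 for TDH3 (adjusted p = 0.381), each with an SE of 0.491 shared by all genes, beside a median gene change of 0.360. With fractions scaled to S. cerevisiae totals all 3 were called lower (-1.51, -1.11 and -1.47, adjusted p = 0.00353, 0.00643 and 0.00283). That scaling called 1448 of 5053 genes in all. Without gradient T30 replicate 1 the change of TDH1 was -1.998. HXK2 had 1.85 and 0.50 at T30, against 0.68 and 0.17 at T0 (0.75, adjusted p = 0.558), and was called higher without gradient T30 replicate 2 (1.43, adjusted p = 0.0306). The induced HXK1 (0.0094), GLK1 (-0.033) and PYK2 (-0.23) were not called. PYK2 had the lowest ratio of the 10 in every asynchronous gradient, with 38.2 and 23.9% of its scaled counts in heavy fractions at T30 and 35.2 and 33.1% at T0. These T0 values rest on few reads: PYK2 had 13 to 32 per fraction in replicate 1 and 22 to 154 in replicate 2. In asynchronous T0 replicate 1 TDH1 had 5 to 130 reads per fraction and HXK1 12 to 78. The single alpha-factor gradient at T0 gave PYK2 56.9% and TDH3 88.3%.

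**Figure D5:**
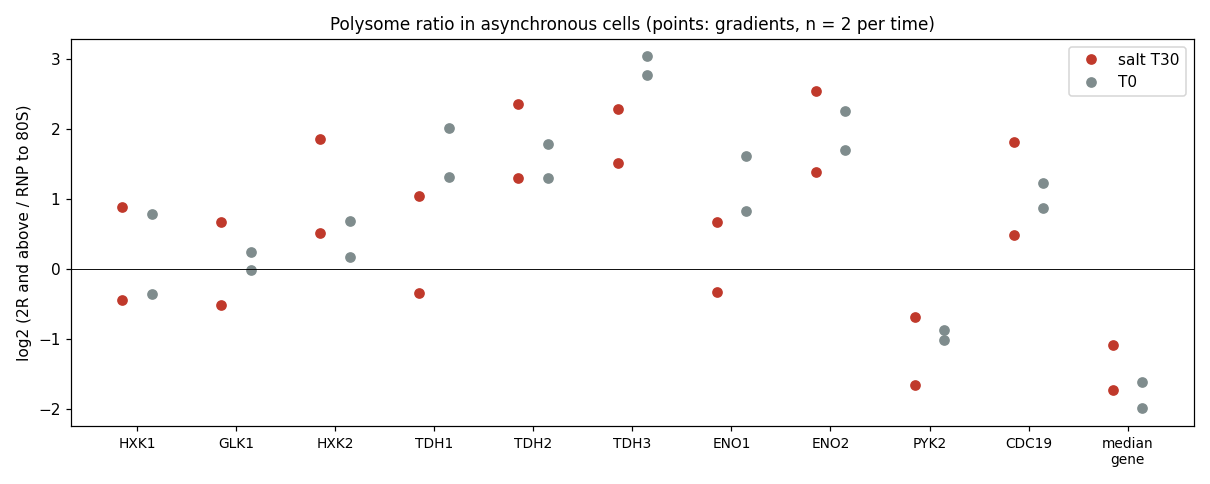
Polysome ratio (log2 of scaled counts in 2R and above over RNP to 80S) of each isozyme in asynchronous gradients at T30 of salt and at T0; points are gradients (n = 2 per time). TDH1, TDH3 and ENO1 lie lower at T30 in both gradients, and PYK2 has the lowest ratios of the 10.

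Of 17 other genes of glycolysis and fermentation, 5 were called higher and 2 lower with salt in asynchronous cells, with a median change of -0.32. The risers were PDC6, a minor pyruvate decarboxylase (3.19 ± 0.69), the glucokinase homolog EMI2 (2.91 ± 0.40), the phosphoglycerate mutase homolog GPM2 (2.20 ± 0.22), PFK26, which makes fructose-2,6-bisphosphate (2.07 ± 0.18), and the pyruvate decarboxylase PDC5 (1.57 ± 0.29). The main pyruvate decarboxylase PDC1 (-0.81 ± 0.30) and the triose phosphate isomerase TPI1 (-0.68 ± 0.18) were lower. In alpha-factor cells 4 were called higher and 0 lower with salt (EMI2 1.48, GPM2 1.18, PFK27 0.77 and PFK26 0.62), and 1 response, that of PFK26, differed between the states (-1.45 ± 0.25, adjusted p = 0.00542). Before salt PDC6 (3.18), GPM2 (1.204) and PFK26 (1.06) were higher in alpha-factor than in asynchronous cells, and 0 were lower.

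Without added cells 5 of the 17 were called higher and 0 lower with salt in nocodazole, 0 in alpha factor by edgeR (3 at an unadjusted p under 0.05), 3 higher in 3.5 h nocodazole and 4 higher in cycloheximide 0.1. With heat 5 were higher and 1 lower in nocodazole, and 3 higher and 1 lower in alpha factor. Of 7 regulators of glycolytic or stress genes, the stress activators MSN2 (1.33 ± 0.15) and MSN4 (0.74 ± 0.20) rose with salt in asynchronous cells and MSN2 (1.36 ± 0.15) in alpha-factor cells, with 0 lower in either. MSN2 was also the 1 regulator called, and higher, in each salt comparison without added cells (1.06 to 1.91). With heat 2 were higher in alpha factor (MIG1 1.23, MSN2 1.14), and in nocodazole 3 were higher, led by MSN4 (2.54) and MIG1 (1.72), and 1 was lower, RAP1 (-0.70). Before salt MIG1, a repressor in glucose repression (-0.79 ± 0.19), RAP1, an activator of glycolytic genes (-0.77 ± 0.15), and MSN2 (-0.74 ± 0.15) were lower in alpha-factor than in asynchronous cells, and MSN4 (0.68 ± 0.20) was higher.

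Across the 50 unspiked libraries, which share states, stresses and time courses, the isozymes fell into patterns of log2 CPM that can be described by correlation. HXK1 and GLK1 had a Pearson r of 0.938 with each other (0.979 over the 16 spiked libraries), HXK1 and PYK2 0.893 (0.886), and TDH1 and ENO1 0.931 (0.957). TDH3 and CDC19 had 0.784 (0.944), while HXK1 and HXK2 had -0.26 (-0.27). Among 5159 genes, those most like HXK1 were PNC1 (0.944), PGM2 (0.944) and YMR196W (0.941), and those most like GLK1 were PNC1 (0.979), GAD1 (0.969) and PGM2 (0.967). Outside the isozymes, TDH1 was nearest PST2 (0.911), BNA1 (0.909) and GPG1 (0.906), below its 0.931 with ENO1. PYK2 was nearest CIT1 (0.930), YPS6 (0.925) and UBI4 (0.922). HXK2 had no neighbour as close over the unspiked libraries: ASN2 reached 0.777, THS1 0.759 and FAS2 0.7002. Over the 16 spiked libraries their r with HXK2 was 0.784 for ASN2, 0.344 for THS1 and 0.9575 for FAS2. There FAS2 was thus close to HXK2, and THS1 was not.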

How the data were processed

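The 116 RNA-seq libraries of strain BY4741 comprise 16 with added S. pombe cells (spiked), 50 without and 50 from gradients. The authors deposited raw read counts for each open reading frame. Per the submitters' processing notes reads were handled with Trimmomatic 0.32, Bowtie2 and HTSeq 0.6.1. The sources used here name no genome build, annotation, Bowtie2 version or strand option. Per the labels' protocols, RNA was depleted of ribosomal RNA before library preparation.

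Emptied lines (8, 4 and 4 in the unspiked, spiked and fraction tables), 4 plasmid rows and 1 unnamed row (0.00248 to 0.00545% of a spiked library) were left out, and 70 deposited count columns matching no labelled sample were not used here. The S. pombe share of counts was 5.53 to 14.2% in spiked libraries and 5.70 to 49.4% in gradient libraries. Libraries were grouped by labelled state, stress and time. No 2 libraries of a group were copies (chi-square per degree of freedom at least 1.93).

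Counts were scaled by TMM after filterByExpr and tested with edgeR 4.0.16 (R 4.3.3) by two-sided quasi-likelihood F tests, one fit per series, with Benjamini-Hochberg adjustment over all genes calling adjusted p under 0.05. Interaction contrasts compared responses between states. The polysome ratio used fractions scaled by S. pombe counts (offset 1 read, inputs of at least 10 CPM on average) and limma 3.58.1. Isozyme ratios used an offset of 0.5 counts and exact permutation tests (scipy 1.17.1). Correlations used log2 CPM with a prior count of 2 and genes of at least 10 CPM on average. Fits were tested on simulated data. Alternatives were RLE size factors, no filter, DESeq2 1.42.0, S. pombe totals as library sizes, only the compared libraries, a replicate block and single libraries left out.

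In the spiked series residuals of same-numbered libraries correlated at 0.313 to 0.706 (18 pairs) and of others at -0.652 to 0.184 (36 pairs), so same numbers were read as pairs. The reported fits and permutation tests have no block, and the blocked value stands beside each spiked result whose call it changes. The text names every isozyme called in the reported fit of each comparison, but in several comparisons not every uncalled isozyme. Of the other glycolysis list and the regulators it names only part of the called genes. It also names the 3 genes most correlated with 5 isozymes. The isozymes and lists were chosen with earlier results of these data known, and chromosome positions and promoter motifs were not analysed here.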

Additional observations from a re-analysis of the deposited data

Results flagged for a closer look

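A test of the difference between the 2 cell states set apart the salt responses of 3 isozymes, each as the log2 change in alpha-factor cells minus that in asynchronous cells: HXK1 (-2.41), GLK1 (-1.91) and PYK2 (-1.93). All 3 were smaller in alpha-factor cells. The PYK2 levels at T30 overlapped between the states, and its T0 level was higher in alpha-factor cells. No group held 4 or more libraries, so single libraries were not tested against the rest of their group.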

How the results depend on the processing

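Of 1810 values of single isozymes under alternatives, 1562 kept their direction and their side of the threshold, 152 turned sign, 54 gained a call and 42 lost one. Of the 37 called changes, 23 stayed called under every alternative run and 0 turned sign. The alternatives with S. pombe totals and the replicate block together, and with crossed replicate numbers, were chosen after seeing the data. The cause of the changes below was not tested. In the unspiked series and the gradients the samples share only a number, since same-numbered residuals correlated at a median of 0.0419 (salt), 0.277 (heat) and 0.179 (inputs); there the block called PYK2 in the nocodazole minus alpha salt difference and in alpha-factor heat, and TDH1, ENO1 and TDH3 in the polysome ratio.

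The count of all genes called differed by more than 1.5 times under the following settings. 737 genes were called for alpha factor over asynchronous at T0, and 231 with S. pombe totals, 1719 with the replicate block. 78 genes were called for the nocodazole minus alpha heat difference, and 283 by DESeq2, 226 with the replicate block, 2 without the 33c libraries. 516 genes were called for nocodazole over alpha factor at T0, and 1728 with crossed replicate numbers, 1509 with only the compared libraries. 125 genes were called for the polysome ratio, and 1448 with S. cerevisiae totals, 1033 with the replicate block. 1679 genes were called for salt in 3.5 h nocodazole, and 915 with only the compared libraries. 522 genes were called for salt in alpha factor (spiked), and 279 with S. pombe totals, 1026 with S. pombe totals and the replicate block, 1722 with the replicate block. 342 genes were called for salt in alpha factor (unspiked), and 525 by DESeq2, 1024 with only the compared libraries, 542 without the 0.5N libraries. 2399 genes were called for salt in asynchronous cells, and 1432 with S. pombe totals. 1965 genes were called for salt in cycloheximide 0.1, and 1060 with only the compared libraries. 880 genes were called for salt in gradient inputs, and 1753 with S. pombe totals and the replicate block. 505 genes were called for the alpha minus asynchronous difference, and 68 with S. pombe totals, 1800 with the replicate block. 138 genes were called for the nocodazole minus alpha salt difference, and 318 by DESeq2, 503 without the 0.5N libraries.

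The counts of called isozymes in this paragraph and the next stand without the share of all genes called. They describe the settings only. With the replicate block there were 9 isozymes called in salt in asynchronous cells, 5 isozymes called in the alpha minus asynchronous difference and in alpha factor over asynchronous at T0, 1 isozyme called in the nocodazole minus alpha salt difference, and 3 isozymes called in the polysome ratio. For salt in alpha factor (unspiked), the fit with the replicate block gave 0.024 for ENO2. For heat in alpha factor, the fit with the replicate block gave -0.016 for HXK2. For heat in nocodazole, the fit with the replicate block gave -0.0032 for CDC19. For the nocodazole minus alpha heat difference, the fit with the replicate block gave -0.024 for TDH2, -0.12 for TDH3, -0.22 for CDC19. With S. pombe totals there was 1 isozyme called in the alpha minus asynchronous difference. For salt in asynchronous cells, the fit with S. pombe totals gave 0.090 for HXK2, 0.20 for TDH3, 0.29 for ENO2, 0.14 for CDC19. For salt in alpha factor (spiked), the fit with S. pombe totals gave 0.054 for HXK2, 0.21 for ENO2, 0.30 for CDC19. For the alpha minus asynchronous difference, the fit with S. pombe totals gave -0.036 for HXK2, -0.078 for ENO2. For alpha factor over asynchronous at T0, the fit with S. pombe totals gave -0.045 for HXK2, -0.18 for TDH2. For salt in gradient inputs, the fit with S. pombe totals gave 0.21 for HXK2, 0.43 for ENO1, 0.066 for ENO2, 0.11 for CDC19. For salt in asynchronous cells, the fit with S. pombe totals and the replicate block gave 0.083 for HXK2, 0.15 for TDH3, 0.22 for ENO2, 0.11 for CDC19. For salt in alpha factor (spiked), the fit with S. pombe totals and the replicate block gave 0.041 for HXK2, 0.25 for ENO2, 0.30 for CDC19. For the alpha minus asynchronous difference, the fit with S. pombe totals and the replicate block gave -0.042 for HXK2. For alpha factor over asynchronous at T0, the fit with S. pombe totals and the replicate block gave -0.067 for HXK2, -0.23 for TDH2. For salt in gradient inputs, the fit with S. pombe totals and the replicate block gave 0.19 for HXK2, 0.33 for ENO1, 0.028 for ENO2, 0.10 for CDC19. By DESeq2 there were 5 isozymes called in alpha factor over asynchronous at T0, 1 isozyme called in the nocodazole minus alpha salt difference and in the nocodazole minus alpha heat difference. For salt in 3.5 h nocodazole, DESeq2 gave 0.032 for ENO2. With only the compared libraries there were 5 isozymes called in alpha factor over asynchronous at T0 and in nocodazole over alpha factor at T0, 4 isozymes called in salt in alpha factor (unspiked), 1 isozyme called in the nocodazole minus alpha salt difference. For salt in 3.5 h nocodazole, the fit with only the compared libraries gave 0.017 for ENO2. For salt in cycloheximide 0.1, the fit with only the compared libraries gave 0.020 for HXK2. Without the 0.5N libraries there was 1 isozyme called in the nocodazole minus alpha salt difference. For salt in alpha factor (unspiked), the fit without the 0.5N libraries gave -0.032 for TDH3. For salt in nocodazole, the fit without the 0.5N libraries gave -0.32 for ENO1. For the nocodazole minus alpha salt difference, the fit without the 0.5N libraries gave -0.34 for ENO1. For salt in 3.5 h nocodazole, the fit with RLE size factors gave 0.031 for ENO2. For salt in cycloheximide 0.1, the fit with no filter gave 0.013 for HXK2. With crossed replicate numbers there were 7 isozymes called in nocodazole over alpha factor at T0, a fit whose count of all genes called, given above, also rose. For heat in alpha factor, the fit without the 33c libraries gave -0.053 for HXK2. For heat in nocodazole, the fit without the 33c libraries gave -0.33 for CDC19. For the nocodazole minus alpha heat difference, the fit without the 33c libraries gave -0.17 for TDH1, -0.16 for TDH3, -0.45 for CDC19. With S. cerevisiae totals there were 3 isozymes called in the polysome ratio. For the polysome ratio, the fit with S. cerevisiae totals gave -0.10 for TDH2, -0.27 for CDC19. For the polysome ratio, the fit with 3R and above as heavy gave -0.067 for HXK1.

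With single libraries left out, the lowest and highest log2 values follow. For salt in alpha factor (spiked) they were -0.0050 to 0.32 for TDH3, -0.18 to 0.72 for ENO1, -0.63 to 0.080 for ENO2, -0.17 to 0.46 for PYK2, -0.050 to 0.23 for TDH2 over TDH3. For the alpha minus asynchronous difference they were 1 to 3 isozymes called, -0.13 to 0.20 for HXK2, -0.70 to 0.24 for ENO1, -0.29 to 0.46 for ENO2. For alpha factor over asynchronous at T0 they were -0.10 to 0.15 for TDH2, -0.21 to 0.10 for TDH3, -0.35 to 0.22 for ENO2. For salt in alpha factor (unspiked) they were 1 to 2 isozymes called, -0.19 to 0.35 for TDH2, -0.10 to 0.11 for TDH3, -0.0027 to 0.067 for ENO1, -0.17 to 0.034 for ENO2. For salt in nocodazole they were -0.19 to 0.033 for TDH3, -0.32 to 0.48 for ENO1. For salt in 3.5 h nocodazole they were -1.41 to 0.085 for TDH2, -0.42 to 0.53 for TDH3, -0.67 to 0.55 for ENO1, -1.07 to 0.53 for ENO2, -0.94 to 0.38 for CDC19. For salt in cycloheximide 0.1 they were -0.20 to 0.19 for HXK2, -0.20 to 0.54 for TDH3, -0.91 to 0.22 for ENO2, -0.80 to 0.052 for CDC19. For nocodazole over alpha factor at T0 they were 0 to 1 isozymes called, -0.98 to 0.19 for TDH1. For the nocodazole minus alpha salt difference they were 0 to 1 isozymes called, -0.22 to 0.027 for TDH3, -0.38 to 0.42 for ENO1, -0.32 to 0.040 for CDC19. For heat in alpha factor they were 1 to 4 isozymes called, -0.24 to 0.41 for HXK2, -0.35 to 0.11 for TDH2, -0.13 to 0.88 for TDH3, -0.14 to 1.04 for ENO2. The other isozymes there had -0.39 to 1.01 for CDC19. For heat in nocodazole they were -0.28 to 0.18 for TDH2, -0.075 to 0.59 for ENO2, -0.33 to 0.50 for CDC19. For the nocodazole minus alpha heat difference they were -0.19 to 0.48 for HXK2, -0.017 to 1.23 for GLK1, -0.23 to 0.81 for TDH1, -0.20 to 0.30 for TDH2, -0.57 to 0.46 for TDH3. The other isozymes there had -0.40 to 1.12 for ENO1, -0.84 to 0.36 for ENO2, -0.84 to 0.57 for CDC19. For salt in gradient inputs they were 0 to 4 isozymes called, -0.79 to 0.029 for HXK2, -0.43 to 1.40 for TDH1, -0.93 to 0.36 for ENO1, -0.99 to 0.093 for CDC19. For the polysome ratio they were 0 to 1 isozymes called, -0.65 to 0.67 for HXK1, -0.63 to 0.56 for GLK1, -0.25 to 0.81 for TDH2, -0.59 to 0.56 for ENO2. The other isozymes there had -0.58 to 0.76 for CDC19, -0.72 to 0.25 for PYK2.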
